A study of Mus musculus with 6 samples.

Results

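The genes described here are 31 genes of protein synthesis and amino acid supply in mouse bone marrow derived macrophages: 19 cytosolic aminoacyl-tRNA synthetases and 12 genes of the ATF4 amino acid response. They were picked by symbol, with no cut on their values but with earlier results of these data known, from a deposited table of 54232 gene entries. All 31 symbols were found, in 32 entries. The second entry for Ddit3, an annotated locus inside the first, was at 0 in every library, and all 31 other entries passed the filter on low values, for which 3 or more libraries had to reach a normalized count of 10.

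There were 3 libraries of macrophages lacking SIRPa (SIRPa KO) and 3 of wild-type (WT) macrophages. SIRPa is the inhibitory receptor on myeloid cells that binds CD47. Both groups were labelled C57BL/6 and 8 weeks old, were untreated, and were grown from bone marrow for 7 days with 30% medium conditioned by L929 fibroblasts, a source of colony-stimulating factor-1. How the knockout was made, and whether the replicates are separate mice or cultures, is not given in the labels. The p-values therefore rest on the scatter among these 6 libraries, part or all of which may be technical.

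Aminoacyl-tRNA synthetases join each amino acid to its tRNA before translation. When an amino acid runs short, uncharged tRNA activates the kinase GCN2, eIF2 is phosphorylated, most translation slows, and the mRNA of Atf4 is translated more. ATF4, a transcription factor, then pairs with C/EBP proteins and activates genes of amino acid synthesis and uptake together with many synthetase genes. Because ATF4 is controlled largely at translation, its mRNA level does not report its protein. Macrophages draw on this pathway in endoplasmic reticulum stress and on activation.

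ATF4 acts through the C/EBP-ATF response element, whose core is searched for here as TGATGNAA on both strands of the promoter windows in RefSeq (GRCm38.p6), which run from 250 bases before to 50 bases after each annotated start. Windows were found for 23 of the 31 members; none was found for Cars, Eif4ebp1, Hars, Lars, Nars, Rars, Vars and Wars. The motif occurred in 8 of these 23 genes (34.8%), 5 of 12 synthetases and 3 of 11 ATF4 response genes, against 4.51% of all 27025 genes with a window. A single motif was searched, so no overlap with another motif arises. A match of each gene is shown in 30 bases, written on the strand that reads the motif, which is in capitals, because they show which members carry the letters that ATF4 is known to bind.
Aars (chr8:111033840-111033869, minus strand): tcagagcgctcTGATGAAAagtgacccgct
Asns (chr6:7693214-7693243, minus strand): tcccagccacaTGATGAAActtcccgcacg
Chac1 (chr2:119351038-119351067, minus strand): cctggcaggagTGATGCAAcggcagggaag
Gars (chr6:55037960-55037989, minus strand): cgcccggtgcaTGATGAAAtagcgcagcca
Iars (chr13:49682126-49682155, minus strand): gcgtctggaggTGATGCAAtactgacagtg
Tars (chr15:11399655-11399684, plus strand): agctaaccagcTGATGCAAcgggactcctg
Trib3 (chr2:152344028-152344057, plus strand): ccccgcccggcTGATGTAAacctgagctaa
Yars (chr4:129189895-129189924, plus strand): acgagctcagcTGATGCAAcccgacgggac
The Asns match began 23 bases before the start, that of Gars 30 bases before, that of Tars 15 bases before and that of Chac1 193 bases before. In Yars, Iars, Aars and Trib3 the match shown began 3, 7, 9 and 14 bases after the start. Asns and Yars carried it on their own strand and the others on the opposite one. The flanks differed, while the variable base of the core, by the letters above, was C in Chac1, Iars, Tars and Yars, A in Aars, Asns and Gars, and T in Trib3.
The 250 bases before the start of Asns, a textbook target of ATF4, are given whole, with the motif in capitals near the right end.
Asns (chr6:7693210-7693459, minus strand): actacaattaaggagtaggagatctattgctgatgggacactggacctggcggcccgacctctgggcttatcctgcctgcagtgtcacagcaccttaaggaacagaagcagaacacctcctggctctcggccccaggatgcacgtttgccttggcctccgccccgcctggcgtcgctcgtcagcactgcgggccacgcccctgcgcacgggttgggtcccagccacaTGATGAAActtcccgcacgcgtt
A match is a run of letters, not evidence of binding. The windows of Atf4, Ddit3, Sesn2, Phgdh, Psat1, Psph, Shmt2 and Mthfd2, and of Dars, Eprs, Farsa, Farsb, Kars, Qars and Sars, held no match, which says only that these letters are not in this stretch.

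Values below are reads per gene after the authors' division by a size factor for each library, called normalized counts. Assigned reads, recovered from them, numbered 28653015 to 31401080 in the KO libraries and 34102444 to 67446846 in the WT libraries, the third WT library being the deepest. Sirpa stood at 2102, 2112 and 2010.4 normalized counts in KO libraries, against 110498, 114095 and 94737 in WT libraries, which matched the labels. Macrophage markers were abundant in both groups (8 genes, summed 887803 to 1027100 in KO and 1012340 to 1206230 in WT). The fibroblast markers summed to 2.41 to 8.02 in KO and 1.07 to 13.0 in WT, the erythroid ones to at most 1.15 in KO and 1.07 in WT, and those of T and NK cells to 10.8 to 30.0 in KO and 10.7 to 26.1 in WT. B cell markers summed to 53.0 to 69.9 in KO and 45.6 to 61.0 in WT, mast cell and basophil markers to 53.8 to 107.7 in KO and 58.9 to 89.1 in WT, dendritic cell markers to 157 to 174 in KO and 128 to 201 in WT, and neutrophil and progenitor markers to 368 to 527 in KO and 331 to 635 in WT. Ly6g, Cd3g, Ncr1, Tpsb2, Hba-a1 and Alas2 were at 0 in all libraries. In such bulk RNA, fewer cells with a transcript and less of it per cell cannot be told apart.

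No member passed the test for a difference between the groups. Of 19 synthetases 0 were called higher and 0 lower in KO, and of 12 ATF4 response genes 0 were higher and 0 lower (limma, Benjamini-Hochberg adjusted p = 0.9998 for each), against 0.0% of all 13527 genes called higher and 0.00739%, Sirpa alone, called lower. At an unadjusted p under 0.05 there was 1 member, Atf4, where 1.52% of all genes passed (0.688% higher and 0.828% lower in KO). Fitted to recovered reads, edgeR (quasi-likelihood) and DESeq2 also called 0 of the 31. At an unadjusted p under 0.05 DESeq2 had 1 member, again Atf4, and edgeR had 0. In the authors' deposited table likewise 0 of 31 members had an adjusted p under 0.05. The synthetases varied little across the 6 libraries, while many ATF4 response genes had their lowest or highest value in the third library of a group.

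**Figure D1:**
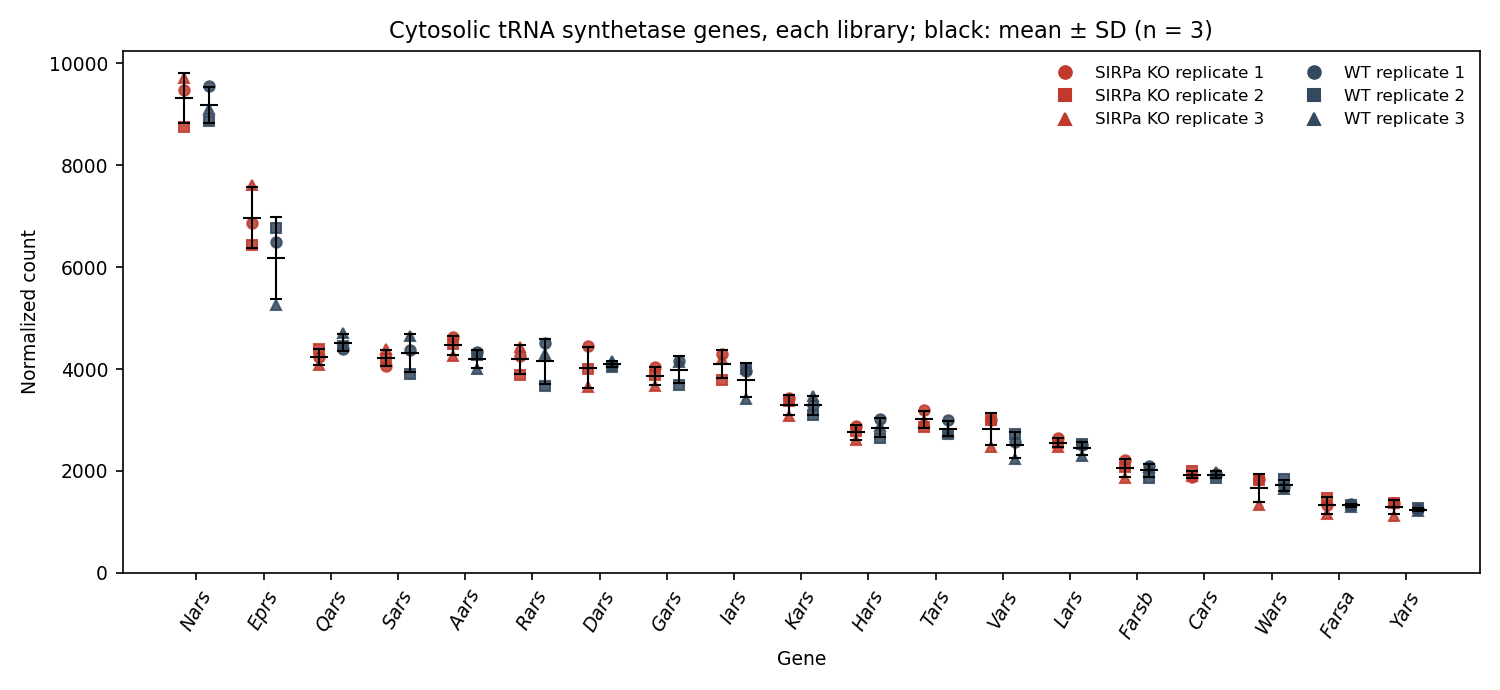
Normalized counts (vertical axis, linear from 0) of the 19 cytosolic tRNA synthetase genes (horizontal axis, ordered by the WT mean) in each SIRPa KO (red, left) and WT (dark, right) library; marker shape gives the replicate and black bars the mean ± SD of 3 libraries. The groups overlap for 18 genes, and for Qars the KO libraries lie below the WT ones by a small step.

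The synthetases were the steadier group. The median of their log2 fold changes, KO over WT, was 0.018, beside -0.0062 for all 13527 genes tested, with 11 members above and 8 below WT (48.2% of all genes were above and 51.8% below). Their estimates ran from -0.094 (Qars) to 0.18 (Eprs). For 19 of 19 synthetases the 95% interval excluded changes beyond 1.5-fold either way, as for 69.1% of all genes and 94.7% of the 5797 genes with a mean of at least 1000 normalized counts, a level that all 19 exceeded. The SD of log2 values within groups had a median of 0.099 over the synthetases, beside 0.19 over all genes and 0.15 over genes of at least 1000 normalized counts. The highest library exceeded the lowest by 1.08-fold in Cars to 1.45-fold in Eprs, with a median of 1.19-fold. Summed over all members, the synthetases took 70129, 67123 and 66991 normalized counts in KO libraries, against 68583, 65558 and 65569 in WT libraries, so the group sums overlapped.

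Synthetases fall into classes I and II by the fold of their catalytic site. Among the class I enzymes, Vars, which charges valine, had 3006, 2994 and 2469.6 normalized counts in KO libraries and 2565, 2734 and 2231 in WT libraries. The first pair of KO libraries stood above every WT library and the third below 2 of them. Vars had a log2 fold change of 0.17 (SE 0.12, 95% interval -0.10 to 0.44), which ran from 0.086 without the third WT library to 0.26 without the third KO library. Iars, the isoleucine enzyme, had 4290.0, 3783 and 4205 in KO and 3965, 4002 and 3410.4 in WT libraries. Lars, the leucine enzyme, had 2656, 2545 and 2467 in KO against 2507, 2528 and 2293 in WT libraries. For Iars and Lars the lowest library was the third WT one. Cars, the cysteine enzyme, was the most even member, with 1888, 2004 and 1896 normalized counts in KO and 1950.1, 1862 and 1981 in WT libraries (log2 fold change -0.0012). Rars, for arginine, had 4262, 3875 and 4439 in KO and 4503, 3657 and 4289 in WT libraries, with its extremes both in WT. Yars, for tyrosine, had 1366, 1378 and 1125 in KO against 1245, 1270.3 and 1208 in WT, with the third KO library lowest. In GENCODE M21, exons of Yars overlap those of C77080 on the other strand, and those of Hars overlap Hars2. Whether counting used the strand is not stated in the labels.

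Qars, the glutamine enzyme (ENSMUSG00000032604, chromosome 9 of GRCm38, 108507706 to 108515941, plus strand), was the one synthetase whose groups did not overlap. It had 4234, 4399 and 4075 normalized counts in KO libraries and 4402, 4445 and 4713 in WT libraries, and the highest KO value lay just under the lowest WT value. The log2 fold change was -0.094 (SE 0.10, 95% interval -0.31 to 0.12), and the gene did not pass the test. Groups failed to overlap for 4.66% of all genes tested (1.96% with KO higher, 2.71% with KO lower), so 1 of 19 synthetases is near that background.

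Wars, the tryptophan enzyme, is known from human cells as a gene induced by interferon gamma, and was therefore set beside the interferon-stimulated genes. It had 1842, 1819 and 1339 normalized counts in KO libraries and 1678.5, 1839 and 1641 in WT libraries, the third KO library being low. Wars had a log2 fold change of -0.058 (SE 0.14, 95% interval -0.36 to 0.25). The 15 interferon-stimulated genes (0 called higher, 0 lower) had 0 above and 15 below WT, where 51.8% of all genes were below. Their median log2 fold change was -0.57. At an unadjusted p under 0.05 (limma) there were 7 of the 15, against 1.52% of all genes. These 15 genes deviated from their 6-library mean by a median of -0.80, 0.071 and -0.035 (log2) in KO libraries and 0.011, 0.20 and 0.53 in WT libraries. In the first KO library, where those genes were lowest, Wars was level with its highest WT value. The part of these genes in the Wars values was not tested.

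Eprs carries a class I glutamate and a class II proline activity in 1 chain (ENSMUSG00000026615, chromosome 1 of GRCm38, 185363044 to 185428360, plus strand). Its normalized counts were 6861, 6440.5 and 7613 in KO libraries and 6501, 6770.0 and 5265 in WT libraries, and its highest value was in the third KO library and its lowest in the third WT library. The log2 fold change was 0.18 (SE 0.12, 95% interval -0.094 to 0.45), the highest estimate among the synthetases. Without the third WT library it was 0.068.

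Among the class II enzymes, Nars, for asparagine, had 9476, 8756 and 9709 normalized counts in KO and 9557, 8874 and 9111 in WT libraries. Aars, for alanine, had 4629, 4499 and 4258 in KO against 4327, 4268 and 4004 in WT libraries. Tars, for threonine, had 3197, 2859 and 2990.3 in KO against 3008, 2726 and 2761 in WT libraries. In Aars 2 KO libraries stood above all WT libraries and the third did not. Sars, for serine, had 4066, 4192 and 4394 in KO and 4375, 3904 and 4651 in WT libraries. Dars, for aspartate, had 4444, 3993 and 3653 in KO and 4087, 4045 and 4156 in WT libraries, the KO libraries spanning the WT ones. Hars, for histidine, had 2885, 2788 and 2599.8 in KO against 3026, 2642 and 2889.7 in WT libraries. The log2 fold changes of these 6 genes lay between -0.048 (Hars) and 0.090 (Tars).

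Gars and Kars, for glycine and lysine, supply both the cytosol and the mitochondria from 1 gene each. Gars had 4032, 3879 and 3669 normalized counts in KO and 4148, 3689 and 4130.1 in WT libraries (log2 fold change -0.046). Kars had 3438, 3371 and 3069.8 in KO and 3296, 3095 and 3468 in WT libraries (log2 fold change 0.0027). For both genes the third KO library was lowest and the WT values lay within or just beyond the KO range. A processed copy, Kars-ps1, was at 0 in all 6 libraries.

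Farsa and Farsb encode the alpha and beta subunits of the phenylalanine enzyme. Farsa had 1342, 1476 and 1152 normalized counts in KO and 1345, 1340.2 and 1297 in WT libraries. Farsb had 2216, 2071 and 1867 in KO and 2096, 1867 and 2069 in WT libraries. Per kilobase of transcript, the ratio of Farsb to Farsa was 1.480, 1.258 and 1.453 in KO libraries and 1.397, 1.249 and 1.431 in WT libraries. The ratio was lowest in the second library of each group, and the groups overlapped.

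Of the synthetases, Dars, Eprs, Iars, Kars, Lars, Qars and Rars belong to the multisynthetase complex, which holds several synthetases on a scaffold. These 7 had a median log2 fold change of 0.018 and the 12 others of the 19 had one of 0.0094. The scaffold genes Aimp1, Aimp2 and Eef1e1, read with Mars and Tarsl2 (5 genes found, 0 called higher, 0 lower, 0 at an unadjusted p under 0.05), varied more. Aimp1 had 1199.8, 1275 and 1146 normalized counts in KO libraries and 1519.9, 1174 and 1792 in WT libraries, with the first and the third WT library above the rest (log2 fold change -0.29, SE 0.15, 95% interval -0.62 to 0.045). Eef1e1 had 619, 646 and 501 in KO and 729, 584 and 782 in WT libraries, with the same WT pair highest. Aimp2 had 642, 662 and 609.9 in KO against 707, 565 and 753 in WT libraries.

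Of 17 mitochondrial synthetases 0 were called higher and 0 lower, and 10 stood above and 7 below WT (median log2 fold change 0.0069). At an unadjusted p under 0.05 there was 1, Lars2, the mitochondrial leucine enzyme, with 1194, 1599 and 1257 normalized counts in KO and 1805, 1546 and 1804 in WT libraries (log2 fold change -0.36, SE 0.14, 95% interval -0.66 to -0.057). The second KO library exceeded the second WT library, so the groups overlapped. Iars2 had 2910.0, 2708 and 3249 in KO and 2827, 2665 and 2654 in WT libraries. Yars2 had 318, 262 and 216 in KO against 292, 264 and 336 in WT libraries.

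To set levels of different genes beside each other, normalized counts were divided by the length of the principal transcript in GENCODE M21 (levels per kilobase, mean of the 6 libraries). Nars led the synthetases at 3369 per kilobase, followed by Rars at 1978, Dars at 1868, Gars at 1649 and Kars at 1638. Gars (1542 to 1743 over the 6 libraries) and Kars (1529 to 1727) overlapped, as did Rars (1734 to 2135) and Dars (1680 to 2043), while Nars (3190 to 3537) stood clear. Yars was lowest at 435 (387 to 474), below Cars at 599 (578 to 622). The order depends on the length used: with all annotated exons joined, Eprs moved to rank 16 of 19, where the principal transcript gave rank 8, while Nars stayed first and Yars last. All synthetases lay between the 57.3 and 93.8 percentiles of the 11543 tested genes with a principal transcript.

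The ATF4 response genes spanned a far wider range per kilobase. Atf4 itself was at 4206, the 95.2 percentile, and Shmt2 at 877. Trib3 at 25.2 and Chac1 at 19.0 were near the lower end, Chac1 at the 9.29 percentile. Chac1 rested on 10 to 68 reads per library and Trib3 on 38 to 86, so counting error adds more to their spread than to that of the other members.

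**Figure D2:**
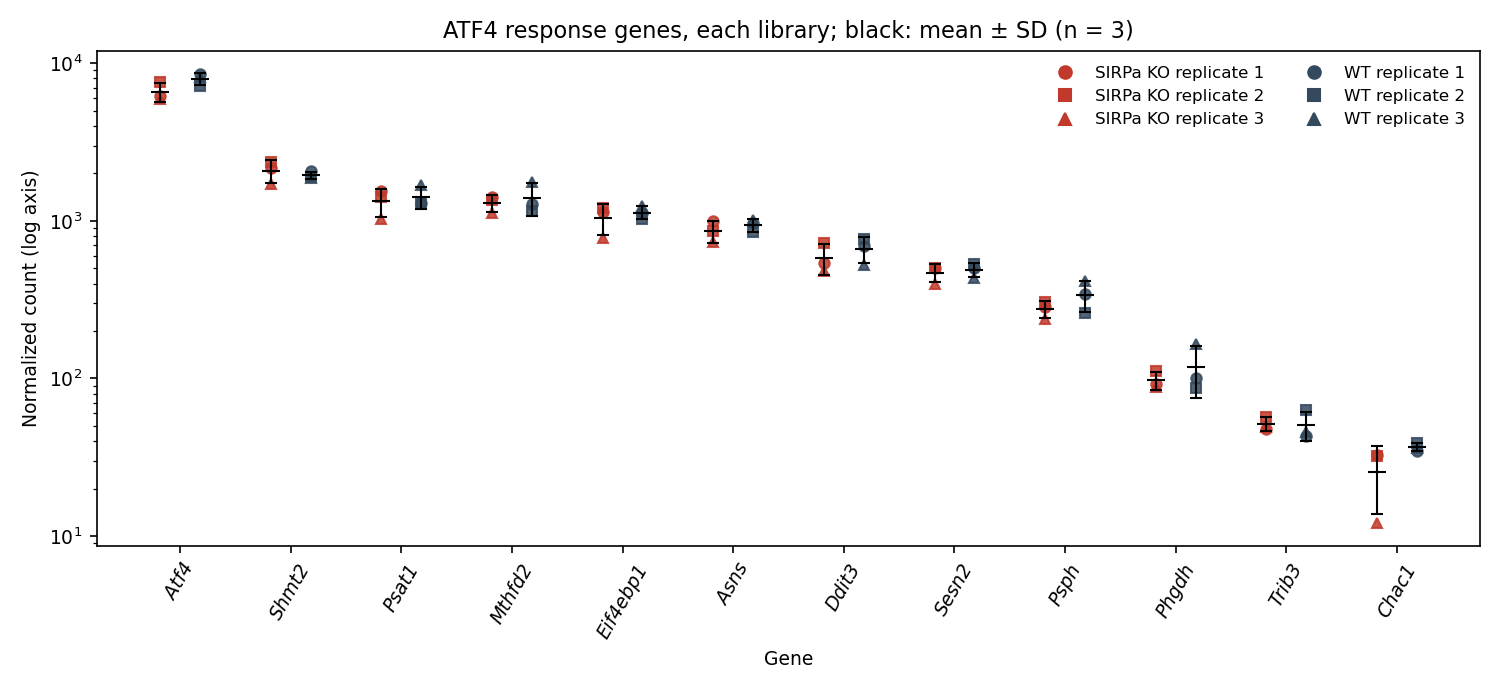
Normalized counts (vertical axis, logarithmic) of the 12 ATF4 response genes (horizontal axis, ordered by the WT mean) in each SIRPa KO (red, left) and WT (dark, right) library; marker shape gives the replicate and black bars the mean ± SD of 3 libraries. The third KO library (red triangle) is the lowest of the 6 for 10 of the 12 genes.

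Atf4, the transcription factor that drives the response (ENSMUSG00000042406, chromosome 15 of GRCm38, 80255184 to 80257541, plus strand), had 6204, 7580.2 and 5917 normalized counts in KO libraries and 8494, 7179 and 8156 in WT libraries. The second KO library exceeded the second WT library, so the groups overlapped, while the other KO libraries lay below all WT ones. The mean was 6567 ± 889 in KO and 7943 ± 683 in WT (SD, n = 3 each), a ratio of 0.827. The log2 fold change was -0.28 (SE 0.12, 95% interval -0.55 to -0.0068), with an unadjusted p = 0.0454 and a limma adjusted p = 0.9998. It stayed below 0 in every fit that left out 1 library, from -0.39 to -0.21. In the authors' deposited table Atf4 had a log2 fold change of -0.27 and an unadjusted p = 0.0444.

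Ddit3, which encodes CHOP, a C/EBP family factor of prolonged stress, had 540.5, 723 and 482 normalized counts in KO libraries and 696, 764 and 525 in WT libraries. In each group the third library was lowest and the second highest. Ddit3 had a log2 fold change of -0.19 (SE 0.18, 95% interval -0.60 to 0.22), which ran from -0.36 without the second KO library to -0.065 without the third KO library. Exons of Ddit3 overlap Mars on the other strand in GENCODE M21, so reads of the pair may be split. Trib3, a pseudokinase that restrains ATF4, had 47.5, 57.3 and 49.4 in KO and 43.5, 63.1 and 46.0 in WT libraries, again with the second library highest in each group. Its log2 fold change was 0.030 (SE 0.24, 95% interval -0.50 to 0.56).

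Chac1, an enzyme that breaks down glutathione, had the largest difference of the 31 members. It had 32.5, 32.1 and 12.1 normalized counts in KO libraries and 34.8, 38.8 and 36.4 in WT libraries. The groups did not overlap, but the first and second KO libraries stood close to WT and the third well under them. The log2 fold change was -0.63 (SE 0.37, 95% interval -1.46 to 0.20), and the gene did not pass the test. Without the third KO library it was -0.18, and without the first KO library -0.86. Of the 12 ATF4 response genes, 1 had groups that did not overlap, with KO lower, beside the 2.71% of all genes. Chac1 (ENSMUSG00000027313, chromosome 2 of GRCm38, 119351229 to 119354381, plus strand) lies 10.2 Mb from Sirpa, and Trib3 lies 22.7 Mb from it, so for these genes an effect of sequence linked to the targeted locus and one of SIRPa loss cannot be told apart.

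Sesn2 encodes a leucine sensor that acts on mTORC1. It had 503, 505 and 397 normalized counts in KO and 505, 529 and 436 in WT libraries, and the third library was lowest in each group (log2 fold change -0.070, SE 0.15, 95% interval -0.40 to 0.25). Eif4ebp1, a repressor of cap-dependent translation, had 1142, 1208 and 781 in KO and 1116, 1025 and 1238 in WT libraries. Its first and second KO libraries lay within the WT range and the third was the lowest of all. The log2 fold change was -0.13 (SE 0.17, 95% interval -0.50 to 0.24), and without the third KO library it was 0.065.

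Enzymes of the response make asparagine and serine and pass the carbon of serine into folate. Asns, asparagine synthetase (ENSMUSG00000029752, chromosome 6 of GRCm38, 7675169 to 7693254, minus strand), had 999.6, 856 and 730.4 normalized counts in KO libraries and 968, 844 and 1015 in WT libraries, overlapping groups with the third KO library lowest and the third WT library highest. Its log2 fold change was -0.14 (SE 0.14, 95% interval -0.45 to 0.18), which ran from -0.25 without the first KO library to -0.022 without the third KO library. Phgdh, the first enzyme of serine synthesis, had 92.6, 111 and 88.0 in KO and 101, 86.4 and 166 in WT libraries. Psat1, the next enzyme, had 1551, 1407 and 1029 in KO and 1297, 1280.0 and 1681 in WT libraries. Psph, the last one, had 283, 307 and 237 in KO against 342, 261 and 415 in WT libraries. In all these genes the third WT library was the highest of the 6. The log2 fold changes were -0.23 (SE 0.25, 95% interval -0.78 to 0.33) for Phgdh, -0.10 (SE 0.17, 95% interval -0.48 to 0.27) for Psat1 and -0.28 (SE 0.19, 95% interval -0.70 to 0.13) for Psph. Without the third WT library Phgdh was at 0.049 and Psat1 at 0.023, above WT, and Psph at -0.12, while without the second WT library Psph was at -0.46. The processed copy Phgdh-ps1 was at 0 in all libraries, and exons of Psph overlap Cct6a on the other strand.

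Shmt2 and Mthfd2 are mitochondrial enzymes of the folate route. Shmt2 had 2159, 2364 and 1709 normalized counts in KO libraries and 2061, 1901 and 1855 in WT libraries, with the first and second KO libraries above all WT ones and the third below them (log2 fold change 0.088, SE 0.13, 95% interval -0.20 to 0.38). Mthfd2 had 1410.0, 1354 and 1125 in KO and 1285, 1148 and 1768 in WT libraries, with the third WT library highest and the third KO library lowest (log2 fold change -0.094, SE 0.16, 95% interval -0.46 to 0.27). Shmt2, unlike the serine enzymes, was not highest in the third WT library.

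**Figure D3:**
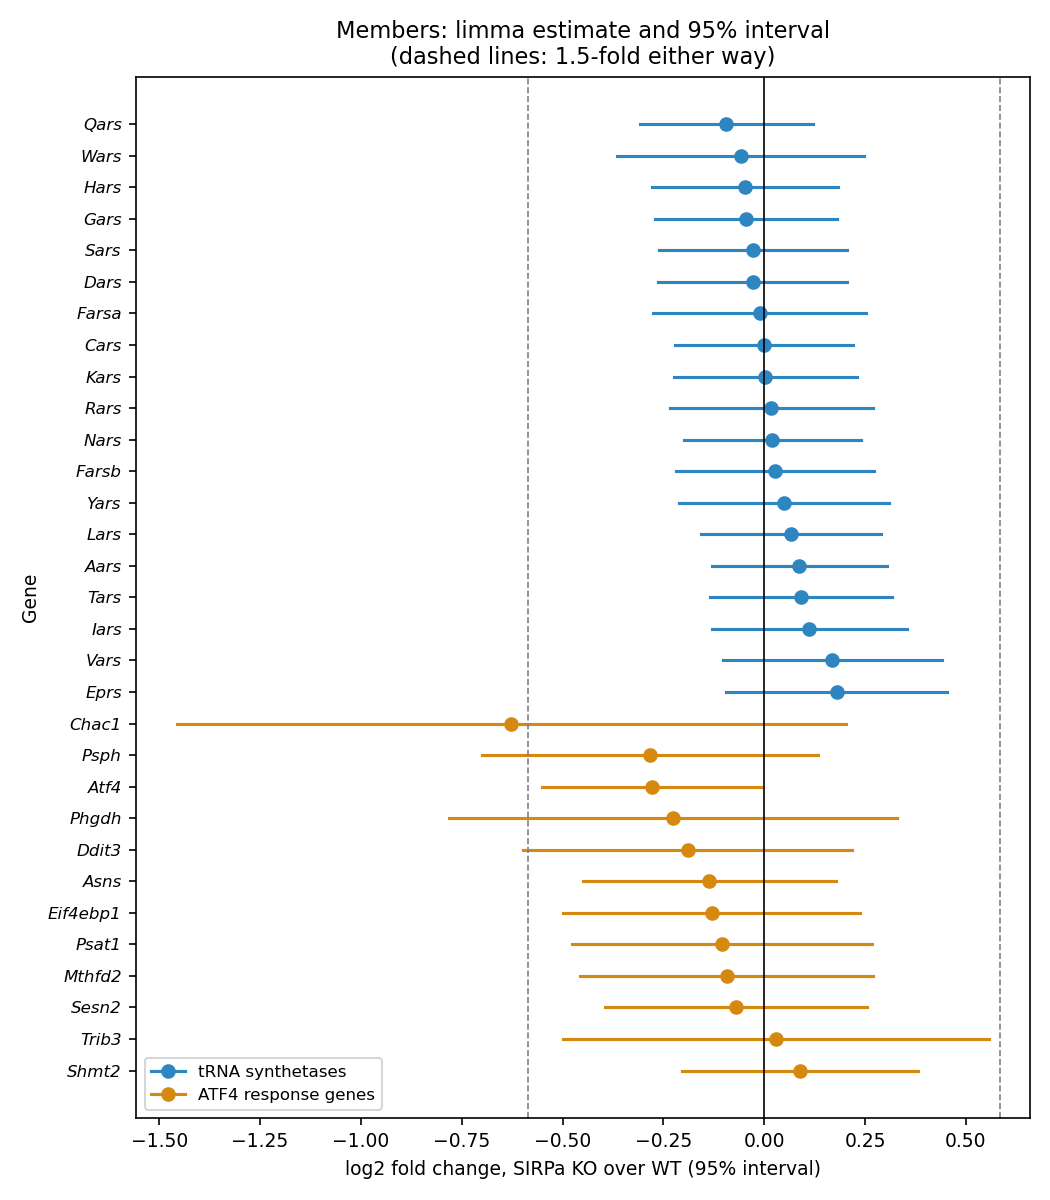
Log2 fold change (horizontal axis, SIRPa KO over WT, points) with its 95% interval (lines) for the 19 synthetases (blue) and the 12 ATF4 response genes (orange), 1 gene per line, with dashed lines at 1.5-fold either way. All synthetase intervals lie between the dashed lines, while those of Chac1, Psph, Phgdh and Ddit3 pass the lower one.

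Across the 12 ATF4 response genes, 10 were below and 2 above WT, with a median log2 fold change of -0.13 beside -0.0062 for all genes tested. The 95% interval lay within 1.5-fold for 8 of the 12 (66.7%), close to the 69.1% of all genes. The median SD of log2 values within groups was 0.26, above the 0.19 of all genes. Summed, the 12 genes took 14965, 16504 and 12557 normalized counts in KO libraries, against 16944, 15119 and 17339 in WT libraries, and the groups overlapped. The third KO library was the lowest of the 6 for 10 of these 12 genes and for 8 of 19 synthetases, and the third WT library was the highest for 6 of the 12. The median deviation of the 12 genes from their 6-library mean (log2) was 0.079, 0.084 and -0.29 in KO libraries and 0.070, -0.069 and 0.19 in WT libraries. By this median the first and second KO libraries lay slightly above the first WT library and further above the second. By the sums, the first KO library lay below both of these WT libraries, and the second KO library lay between them. Without the third KO library 6 of the 12 were above and 6 below WT and the median was -0.0085. A fit without the third library of either group, chosen after these values were seen, also gave 6 above and 6 below, with a median of 0.014. For the synthetases that fit gave 16 above and 3 below WT, with a median of 0.046. Their median was 0.085 without the third KO library alone.

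**Figure D4:**
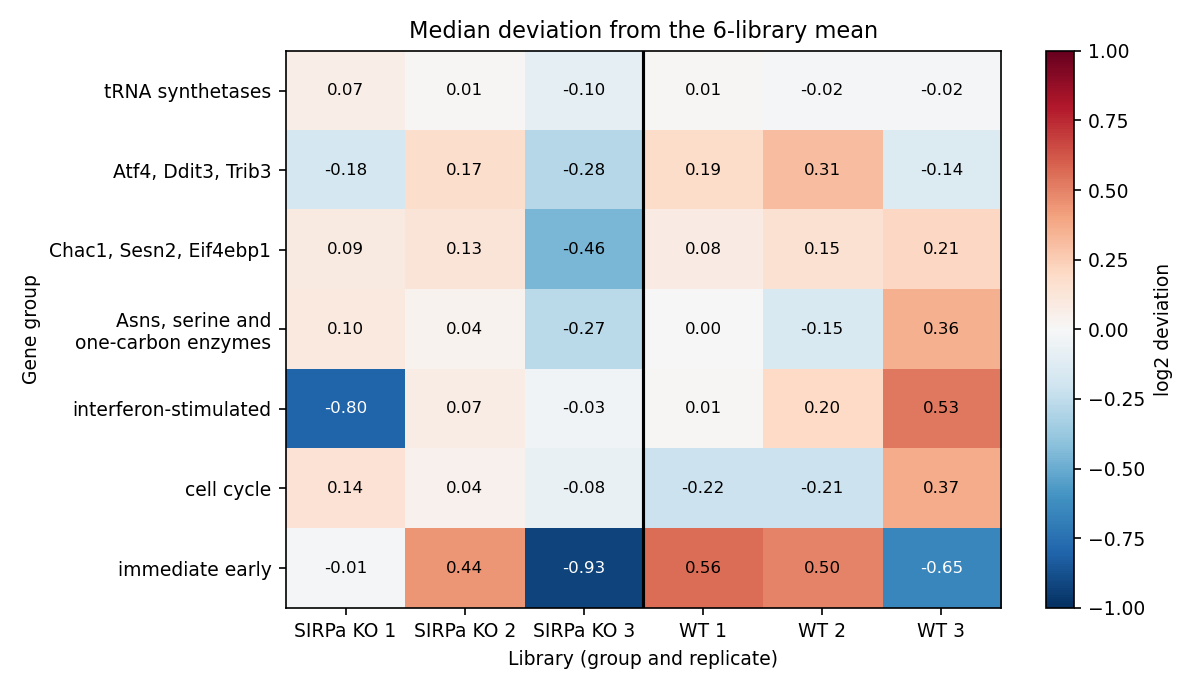
Median deviation from the 6-library mean (log2, colour and printed value) of gene groups (rows) in each library (columns, SIRPa KO left of the line, WT right). The third KO library is low for every ATF4 response group, and immediate early genes are low in the third library of both groups. The third WT library is highest for the interferon-stimulated genes, and is also high for the cell cycle genes, the enzymes and the group of Chac1, Sesn2 and Eif4ebp1.

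Other gene groups moved with these libraries. The 14 immediate early genes (0 called higher, 0 lower, 0 at an unadjusted p under 0.05) had 0 above and 14 below WT, where 51.8% of all genes were below. Their median log2 fold change was -0.35. These 14 genes deviated by a median of -0.011, 0.44 and -0.93 (log2) in KO libraries and 0.56, 0.50 and -0.65 in WT libraries, low in the third library of each group. The 15 cell cycle genes deviated by 0.14, 0.039 and -0.077 in KO and -0.22, -0.21 and 0.37 in WT libraries, highest in the third WT library, where Asns, Phgdh, Psat1, Psph and Mthfd2 were also highest. The interferon-stimulated genes were highest in that library too (0.53). The part of these groups in the values of the members was not tested.

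Of 20 other known ATF4 targets and partners, 16 passed the filter, and of these 0 were called higher, 0 lower and 0 at an unadjusted p under 0.05, with 2 above and 14 below WT (median log2 fold change -0.082). Atf3, a related factor induced by stress, had 8302, 12265 and 5525 normalized counts in KO libraries and 10237, 16157 and 6706 in WT libraries. Cebpb, a dimer partner of ATF4, had 3965, 5039 and 1473 in KO and 4971, 6353 and 2191 in WT libraries. Ddit4, an inhibitor of mTORC1, had 153, 160.4 and 44.6 in KO against 190.1, 215 and 55.7 in WT libraries. In these 3 genes, which were chosen after their values were seen, the third library was the lowest of each group, as for the immediate early genes. Cebpg, of the same list, went the other way, with 2104, 1919 and 2537 in KO and 2120, 1949 and 2589 in WT libraries. Nupr1, given below, was also highest in the third library of each group. The tested genes of the list deviated by a median of -0.13 (log2) in the third KO library and 0.050 in the third WT library. The smallest unadjusted p-values of the list belonged to Nupr1, Gdf15 and Mthfd1l, all with overlapping groups. Nupr1 had 243, 301 and 307 in KO and 326, 286 and 410.4 in WT libraries. Gdf15 had 169, 186 and 72.3 in KO against 192, 292 and 117 in WT libraries. Mthfd1l had 1092, 916 and 875 in KO against 858, 888 and 879 in WT libraries.

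Upstream of ATF4, the kinases that phosphorylate eIF2, eIF2 itself and its phosphatases (12 genes found, 0 called higher, 0 lower, 0 at an unadjusted p under 0.05) had a median log2 fold change of 0.010. Eif2ak3, which encodes PERK, the kinase of endoplasmic reticulum stress, had 1658, 1488 and 1657 normalized counts in KO libraries and 1321, 1448 and 1379.6 in WT libraries. Its groups did not overlap, with KO higher (1.96% of all genes), by a log2 fold change of 0.21 (SE 0.11, 95% interval -0.026 to 0.45), and the gene did not pass. Eif2ak4, which encodes GCN2 and is given for its role although named after its values were seen, had 1285, 1156 and 1173 in KO and 1118, 1285 and 947 in WT libraries. Gcn1l1, whose product activates GCN2, had 2355, 2414 and 1901 in KO against 1799, 2380.3 and 1414 in WT libraries. Ppp1r15a, the inducible subunit that removes the phosphate from eIF2, had 1820.3, 2467 and 1041 in KO and 2731, 2918 and 1182 in WT libraries, low in the third library of each group.

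Transporters that bring in amino acids under ATF4 (8 genes, 0 called higher, 0 lower, 0 at an unadjusted p under 0.05, 5 above and 3 below WT) had a median log2 fold change of 0.012. Slc7a5, the light chain of the leucine transporter, had 534, 444 and 352 normalized counts in KO and 383.5, 379 and 339 in WT libraries, the first and second KO libraries exceeding all WT ones (log2 fold change 0.25, SE 0.17, 95% interval -0.11 to 0.62). Slc7a1, a carrier of cationic amino acids, had 1767, 1528 and 1380.0 in KO and 1439, 1526 and 1305 in WT libraries. Slc38a2, a carrier of neutral amino acids, had 9797, 8858 and 9493 in KO against 8449, 9621 and 8672 in WT libraries.

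Set beside the motif, the 8 members whose windows hold TGATGNAA had a median log2 fold change of 0.039, from -0.63 (Chac1) to 0.11 (Iars), with 5 above and 3 below WT. The 15 members whose windows do not hold it had a median of -0.070, from -0.28 (Psph) to 0.18 (Eprs), with 4 above and 11 below. The ranges overlapped, and the difference was not tested. Of the 8 with a match, 5 were synthetases and 3 were ATF4 response genes (Chac1, Asns and Trib3, at -0.63, -0.14 and 0.030). The 2 motif groups thus differ in make-up. Their difference cannot be told apart from that between all 19 synthetases (median 0.018) and all 12 ATF4 response genes (median -0.13).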

How the data were processed

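Poly(A) RNA of 3 SIRPa KO and 3 WT macrophage libraries was analysed, grouped by their titles. The deposited library columns are a normalized signal: the authors scaled each library's gene counts by its own size factor. Processing named per the submitters' processing notes was STAR 2.5.1b, featureCounts 1.6.0 and DESeq2 1.22.2, with CASAVA 1.4, on GRCm38. The design text instead names TopHat 2.0.10, and which aligner was used is not known. Per the file headers, the authors' table adds log2 fold changes, standard errors, a test score and the p-values, raw and adjusted. Counting strand and annotation release are not stated. All positive values (100%) were whole reads times a constant of the library, to 0.001 reads, so reads could be recovered. Entries with no gene name, 67 in all, held 0.0028% of reads.

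The test was limma 3.58.1 (R 4.3.3) with a trend on log2(value + 1), a scale that shrinks changes of low genes. It covered 13527 genes reaching 10 in 3 libraries or more, two-sided, with Benjamini-Hochberg adjustment over all of them and a threshold of 0.05. Alternatives were edgeR 4.0.16 and DESeq2 1.42.0 on recovered reads, other pseudocounts, filters and scaling, no trend, a replicate block and leaving out each library. Named genes were Sirpa, all 31 members and, of each other list, up to 3 with the smallest p. Atf3, Cebpb, Cebpg, Ddit4 and Eif2ak4 fall outside this rule and were named after their values were seen. Interferon, immediate early, cell cycle and marker lists are summarised only. The members and lists were chosen with earlier results of these data known. Coordinates and transcript lengths came from GENCODE M21. The scripts were tested on simulated data. No 2 replicates were alike within sampling noise (chi-square over degrees of freedom at least 12.29). Some items are not reported here. Depth sets counting error only.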

Additional observations from a re-analysis of the deposited data

How the results depend on the processing

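None of the 31 members was called under any of 16 alternatives, in which the smallest adjusted p of a member was 0.857 (limma), and 0 genes were called higher and 1, Sirpa, lower each time. The direction held for 11 of 31 members, Atf4 among them. Rescaling by TMM, which put the median of all genes at -0.026, gave log2 fold changes of -0.017 for Kars and -0.0015 for Rars, and a synthetase median of -0.0015 in place of 0.018. With edgeR Cars was at 0.00048. Without the third library of both groups, signs changed for Cars (0.030), Dars (0.051), Farsa (0.068), Gars (0.016), Hars (0.0045), Nars (-0.016), Wars (0.059), Trib3 (-0.0057), Eif4ebp1 (0.14), Asns (0.033), Psat1 (0.20), Phgdh (0.12) and Mthfd2 (0.19). Leaving out 1 library at a time, the synthetase median ran from -0.0090 to 0.085, the highest without KO replicate 3, and the ATF4 response median from -0.20 to -0.0085. The same ranges that crossed 0 were -0.029 to 0.018 for Cars, -0.10 to 0.040 for Dars, -0.094 to 0.085 for Farsa, -0.030 to 0.093 for Farsb, -0.040 to 0.052 for Kars, -0.011 to 0.064 for Nars, -0.070 to 0.080 for Rars, -0.098 to 0.029 for Sars, -0.14 to 0.092 for Wars, -0.0017 to 0.14 for Yars, -0.072 to 0.19 for Trib3, -0.15 to 0.045 for Sesn2, -0.25 to 0.065 for Eif4ebp1, -0.23 to 0.069 for Psat1, -0.42 to 0.049 for Phgdh, -0.012 to 0.22 for Shmt2 and -0.22 to 0.087 for Mthfd2. The cause was not tested. The replicate block left the medians at 0.018 and -0.13 and changed no call. Same-numbered libraries correlated in their deviations by 0.013, 0.31 and 0.13 for numbers 1, 2 and 3, and differently numbered ones by -0.26 to 0.15. KO replicate 2 correlated best with WT replicate 2 (0.31), and KO replicate 3 with WT replicate 1 (0.15). KO replicate 1 showed no clear match, at 0.013, -0.012 and 0.0020 with WT replicates 1, 2 and 3. The labels do not pair the samples, so the main fit took no pairing. Whether same-numbered libraries share a batch was not tested. A minimum of 50 left 10 ATF4 response genes, without Chac1 and Trib3. Depth limits Chac1 and Trib3 most, with 10 to 86 reads per library. Atf4 had an unadjusted p under 0.05 by limma and DESeq2 but not by edgeR or under the replicate block.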
